A study of Mus musculus with 3 samples.

Results

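S100 proteins, galectins and annexins are calcium-binding, sugar-binding and membrane-binding proteins, and 10 genes of these families were followed in mouse regulatory T cells. They were S100a4, S100a6, S100a10, S100a11, S100a13, Lgals1, Lgals3, Anxa2, Anxa5 and Anxa6, 10 of the 55536 genes in the deposited gene tables. The genes were listed by symbol as a group linked with the effector state of T cells, and each symbol was matched to its identifier in the annotation. Measured levels in these libraries were not part of the rule, although the genes were proposed with earlier results of the same data known.

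The libraries hold polyadenylated RNA of regulatory T cells, a CD4 lineage that depends on the transcription factor Foxp3 and restrains immune responses. The labels give the source as adult male, 4 months old, of the mouse strain Foxp3CreERT2 x Rosa26YFP, and name bone marrow hematopoietic cells as the origin. In that strain a tamoxifen-activated Cre recombinase is made from the Foxp3 locus and a YFP reporter sits at the Rosa26 locus; no treatment is given in the labels. The 3 libraries were technical replicates 1, 2 and 3 of biological replicate 1 and are called libraries 1, 2 and 3. They form a single group, so the data hold no comparison of conditions, and every spread and p-value below measures only the differences between these 3 libraries. The labels do not say whether they came from the same RNA, the same sort or the same animal, so what the SD over n = 3 covers is not known beyond the word technical.

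Gene totals were between 8284381 and 9299054 expected counts per library. All 7 regulatory T cell markers on the list were detected, which means 1 TPM or more in each of the 3 libraries, with summed TPM of 4022, 4255 and 3903 in libraries 1, 2 and 3. TPM is a level corrected for transcript length and library size, and it is the scale used for every comparison between genes. All 8 markers of the effector state (Cd44, Klrg1, Itgae, Icos, Tigit, Prdm1, Gzmb and Ccr8) were detected as well. The samples were bulk RNA of 1 group in which cells of different states were not separated, so the link of the 10 genes with effector cells could not be checked here. In bulk RNA, fewer cells of a type and less RNA per cell cannot be told apart. Red cell genes summed to 1681, 9.02 and 1495 TPM, with library 2 far below the others. The plasma cell list summed to 1985, 237 and 1408 TPM, most of it Igkc (1842, 201 and 1203 TPM). Jchain (98.5, 4.42 and 79.7 TPM) and Igha (36.4, 1.35 and 98.5 TPM) were lowest in library 2 as well. Xbp1 of the same list was highest there (8.20, 30.7 and 26.02 TPM), and Sdc1 was below 1 TPM in all libraries.

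S100 proteins are small EF-hand proteins that bind calcium and then attach to target proteins; S100A10 has lost calcium binding and pairs with annexin A2. Galectins bind beta-galactoside sugars on surface glycoproteins such as CD45 and CD43, and galectin-1 has been linked with the suppressive function of regulatory T cells. Annexins bind acidic membrane lipids in the presence of calcium, and annexin A5 is used as a probe for phosphatidylserine on dying cells.

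All 10 genes were detected in all 3 libraries, and their levels ran over a wide range. Among the detected protein-coding genes, S100a10 stood at the 98.1 percentile of mean TPM and Lgals3 at the 41.0 percentile. Together the 10 genes took 2927, 2377 and 2363 TPM, a mean of 2556 ± 321 TPM (SD, n = 3). In read counts they took 0.191%, 0.152% and 0.153% of the library.

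**Figure D1:**
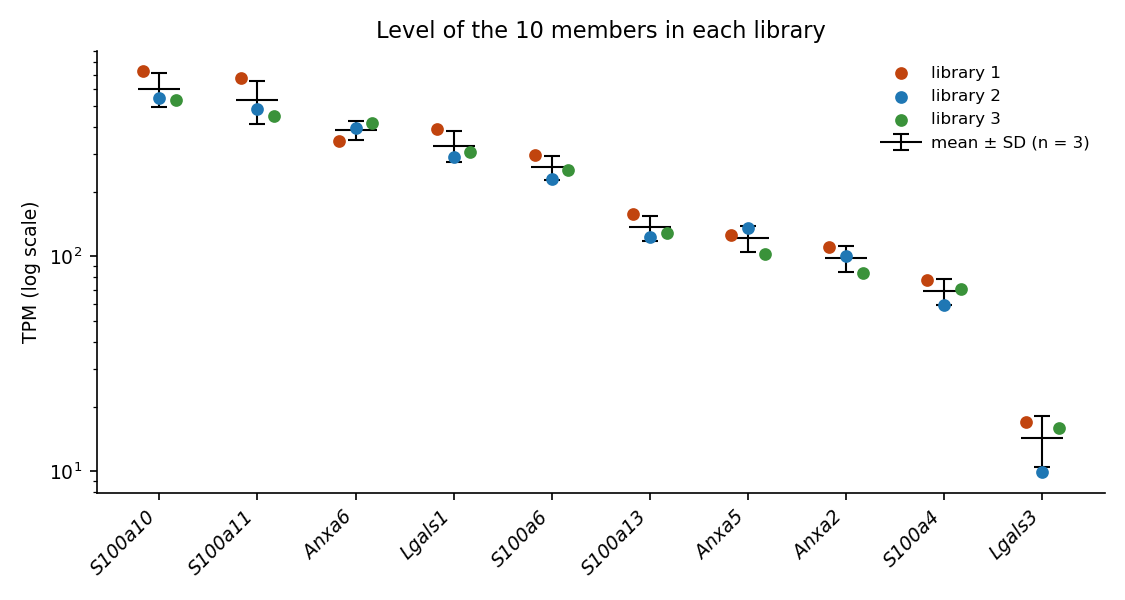
TPM (log axis) of the 10 genes in each of the 3 libraries, with the mean and SD (n = 3), ordered by mean. S100a10 leads at 604 TPM, and Lgals3 is the lowest at 14.3 TPM.

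The highest means of the group were those of S100a10 and S100a11, while S100a4 was ninth of the 10. S100a10, whose protein forms a complex with annexin A2 at the plasma membrane, was at 731, 547 and 534 TPM in libraries 1, 2 and 3, a mean of 604 ± 110 TPM (SD, n = 3). S100a11, which encodes a dimeric S100 protein known to bind annexin A1, was at 676, 484 and 450 TPM, a mean of 537 ± 122 TPM. The ranges of these leading genes overlapped over the libraries, but S100a10 was above S100a11 within each of the 3 libraries. For both, library 1 was higher and libraries 2 and 3 lay close together. S100a6, or calcyclin, was at 297, 230 and 253 TPM, a mean of 260 ± 34.1 TPM. S100a13, which encodes a protein that takes part in the release of FGF1, was at 158, 124 and 128 TPM, a mean of 137 ± 18.4 TPM. S100a4, which encodes a binder of non-muscle myosin, was at 77.7, 59.2 and 70.3 TPM, a mean of 69.1 ± 9.34 TPM. All of these were highest in library 1, and S100a6, S100a13 and S100a4 were lowest in library 2. S100a4 rested on fewer reads, with 201, 131 and 140 expected counts against 3010, 1913 and 1685 for S100a10.

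Of the galectins, Lgals1 was at 390, 289 and 306 TPM, a mean of 328 ± 54.1 TPM (SD, n = 3). Lgals3, whose protein is the chimera-type galectin and is abundant in macrophages, was at 16.99, 9.89 and 15.97 TPM, a mean of 14.3 ± 3.84 TPM, on 127, 63 and 91 expected counts. Lgals1 was 23.0, 29.2 and 19.2 times Lgals3 in TPM in libraries 1, 2 and 3, so the order of the pair was the same in each. Both genes were lowest in library 2.

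Among the annexins, Anxa6, which encodes an annexin with a doubled core, led with 344, 398 and 419 TPM, a mean of 387 ± 38.7 TPM (SD, n = 3). It was the only one of the 10 genes with its lowest TPM in library 1, although its scaled counts, given below, were highest there. Anxa5 was at 126, 136 and 103 TPM, a mean of 122 ± 16.8 TPM. Anxa2, the partner of S100A10, was at 110, 100 and 83.4 TPM, a mean of 98.0 ± 13.6 TPM. Anxa5 and Anxa2 were both lowest in library 3 and overlapped in range. The transcript of S100a10 exceeded that of its partner Anxa2 by 6.62, 5.47 and 6.41 times in TPM, a mean ratio of 6.17 ± 0.614 (SD, n = 3).

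The order by mean TPM was S100a10, S100a11, Anxa6, Lgals1, S100a6, S100a13, Anxa5, Anxa2, S100a4 and Lgals3. Neighbours whose ranges over the libraries did not overlap were S100a11 and Anxa6, S100a6 and S100a13, Anxa2 and S100a4, and S100a4 and Lgals3. The other neighbouring pairs overlapped. Anxa6 was above Lgals1, and S100a13 above Anxa5, in 2 of the 3 libraries only. With 3 libraries of 1 biological replicate, no ranking of other genes by likeness of pattern was made.

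The members held nearly all of the S100 RNA, most of the annexin RNA and about as much of the galectin RNA as the other galectins. The 5 S100 members took 98.8%, 99.7% and 99.5% of the summed TPM of the 16 S100 genes listed. The 3 annexin members took 80.8%, 80.8% and 80.5% of the TPM of 12 annexin genes. The 2 galectin members took 54.5%, 42.8% and 44.5% of the TPM of the 9 galectin genes in the table.

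**Figure D2:**
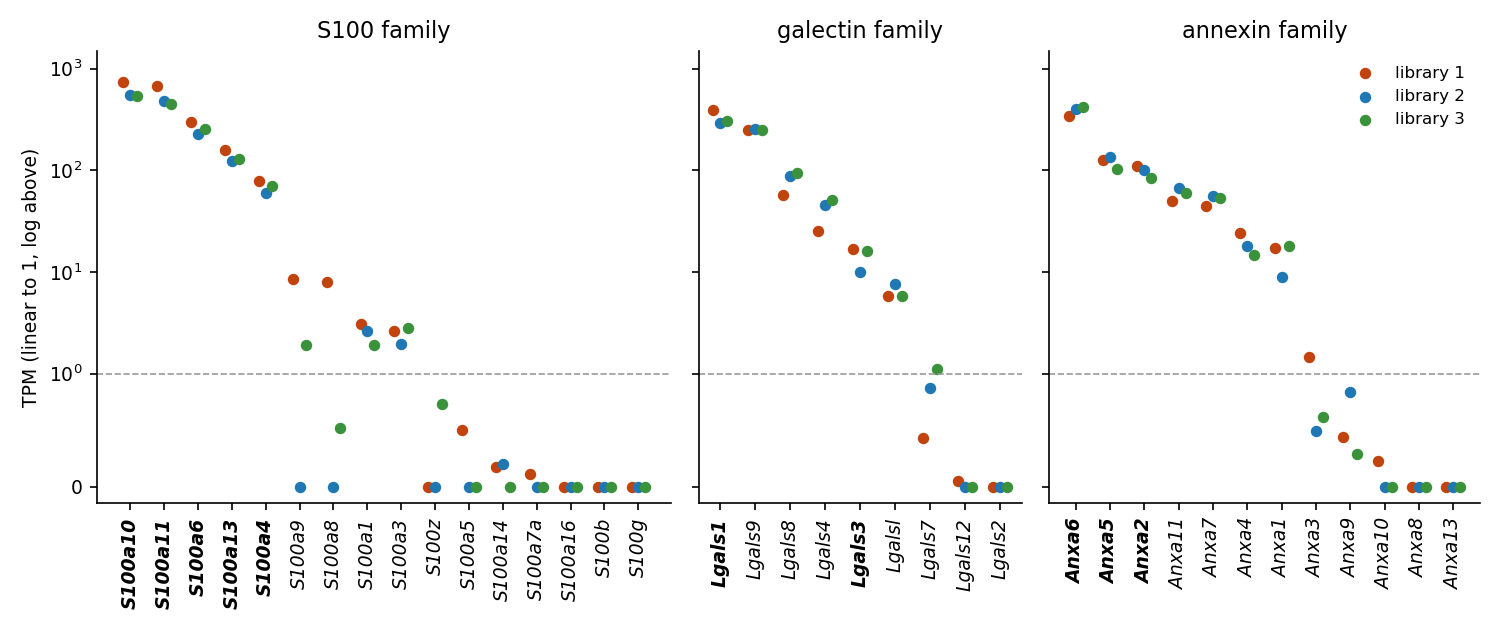
TPM of every listed S100, galectin and annexin gene in each library, ordered by mean within the family; the axis is linear up to 1 and log above, the dashed line is the detection threshold of 1 TPM, and bold names are the 10 followed genes. In the S100 family the 5 bold genes come first, while Lgals9, Lgals8 and Lgals4 lie above Lgals3.

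Outside the members, the S100 family was low. S100a1 and S100a3 were the only other S100 genes detected, at 2.54 ± 0.578 and 2.45 ± 0.448 TPM (SD, n = 3). S100a16, S100b and S100g were at 0 in all libraries. S100a8 and S100a9, the subunits of calprotectin in neutrophils, were at 7.96, 0 and 0.52 TPM and at 8.45, 0 and 1.92 TPM. They were high in library 1 alone, with 20 and 23 expected counts there and none in library 2. A count of 0 allows up to 3 counts, so a low level in library 2 cannot be seen at this depth. The neutrophil marker list, which holds these genes, summed to 45.7, 0.60 and 4.09 TPM. None of its 8 genes passed 1 TPM in all libraries, Ngp was at 17.6, 0 and 0.15 TPM, and Elane and Retnlg were at 0 in all.

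The galectins beyond the members were led by Lgals9, a tandem-repeat galectin, at 250, 257 and 251 TPM. Its mean was 253 ± 3.60 TPM (SD, n = 3), and that of the galectin-like gene Lgalsl was 6.41 ± 1.09 TPM. Lgals1 exceeded Lgals9 by 1.56, 1.12 and 1.22 times in TPM. Lgals8 followed at 57.7, 88.1 and 93.9 TPM, but in scaled counts it did not pass the test described below (adjusted p = 0.116, chi-square test with Benjamini-Hochberg adjustment). It passed the same chi-square test with the scaling by gene length given below (adjusted p = 0.0293, Benjamini-Hochberg adjustment). Lgals4, known for its high level in intestinal epithelium, was detected at 25.6, 45.1 and 50.9 TPM, on 209, 308 and 307 expected counts. Lgals4 was lowest in library 1 in TPM, as Anxa6 was, and also in scaled counts, where none of the 10 genes was lowest in library 1 (1.54-fold between the extremes, adjusted p = 2.12e-05, chi-square test with Benjamini-Hochberg adjustment). Lgals2 was at 0 in every library, and Lgals7 and Lgals12 did not reach 1 TPM in every library.

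Of the other annexins, Anxa11 and Anxa7 were at 59.2 ± 8.33 and 51.1 ± 5.94 TPM (SD, n = 3), and Anxa4 was at 18.8 ± 4.72 TPM. Anxa1, which encodes a regulator of inflammation that acts through formyl peptide receptors, was at 17.4, 8.96 and 18.0 TPM. Library 2 was the low one, as it was for Lgals3. S100a11 exceeded Anxa1, a known partner of its protein, by 38.9, 54.1 and 25.0 times in TPM. Anxa3, Anxa9 and Anxa10 were below 1 TPM in at least 2 libraries, and Anxa8 and Anxa13 were at 0 in all.

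The S100 members lie in 2 places on chromosome 3 in mouse build mm10. A block of 11 of the listed S100 genes spans 184.688 kb and holds S100a13, S100a4 and S100a6. S100a11 starts 2824.766 kb after the end of that block, and S100a10 follows 28.792 kb further on. In the block, high genes lay among genes at or near 0. S100a4 (chr3:90603771-90606045, plus strand) and S100a6 (chr3:90612882-90624181, plus strand) flank S100a5, which had 1 expected count in library 1 and none in the others. The gaps on both sides of S100a5 were 2.477 and 1.101 kb. S100a6 was 3.82, 3.89 and 3.59 times S100a4 in TPM.

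**Figure D3:**
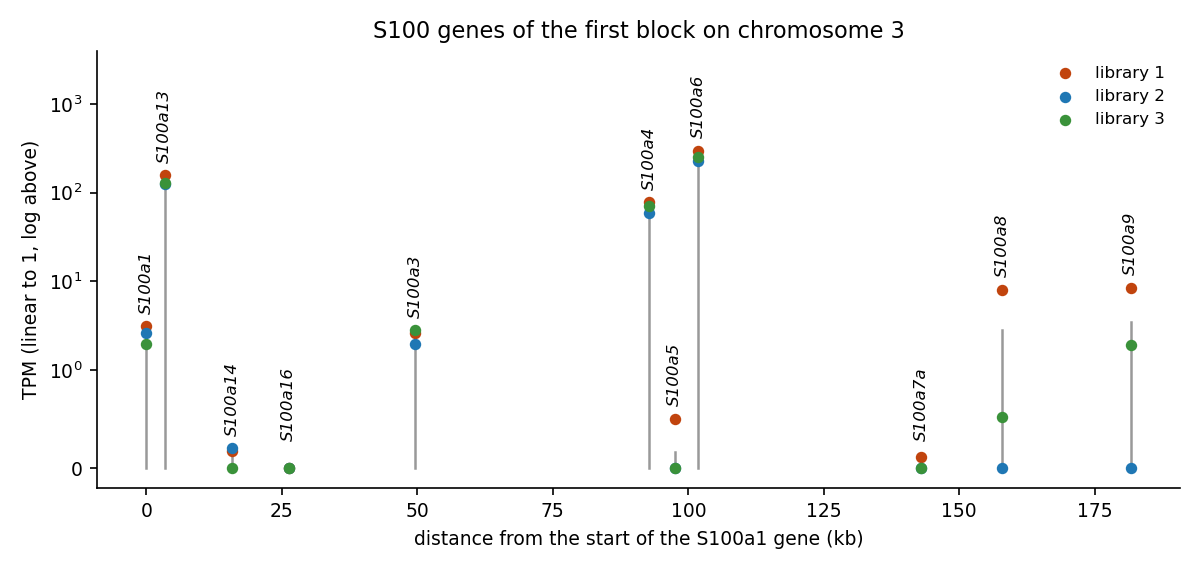
TPM of the 11 S100 genes of the chromosome 3 block in each library (linear up to 1, log above) against the distance of each gene's start from that of S100a1 in kb; grey stems reach the mean. S100a13, S100a4 and S100a6 stand at 59.2 TPM or more, and S100a5, between S100a4 and S100a6, stands below 1 TPM.

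The 100 bases before the start of S100a4 and of its neighbour S100a5, at 0.50, 0 and 0 TPM, are shown to set a high and a low gene of the block side by side, with those of S100a11 from the distant pair. They are RefSeq promoter sequences (GRCm38.p6, the same build), for chr3:90603670-90603769, chr3:90608422-90608521 and chr3:93520396-93520495, all on the plus strand. Capitals mark a TATA box (TATAAA), a GC box (GGGCGG) or an AP-1 site (TGANTCA), searched on both strands.
S100a4: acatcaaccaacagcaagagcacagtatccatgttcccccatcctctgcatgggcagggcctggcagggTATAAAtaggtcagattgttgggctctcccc
S100a5: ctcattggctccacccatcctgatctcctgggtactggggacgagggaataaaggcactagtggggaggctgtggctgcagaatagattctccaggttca
S100a11: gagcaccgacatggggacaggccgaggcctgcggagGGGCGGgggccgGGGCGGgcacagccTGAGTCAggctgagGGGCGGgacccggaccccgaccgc
The S100a4 window held a TATA box that begins 31 bases before the start, the S100a11 window held 3 GC boxes and 1 AP-1 site, and the S100a5 window held none of these letters. Of 32851 mouse promoter windows of this length, 5.56% held the TATA box, 24.7% the GC box and 2.73% the AP-1 site. Sequences were found for 7 of the 10 genes. Over those 7, the TATA box was in 2 windows (S100a4 and Anxa2), the GC box in 3 (S100a11, Lgals3 and Anxa2) and the AP-1 site in 2 (S100a11 and Anxa2). S100a6 and S100a13, the other members in the block, had windows with none of these letters, as S100a5 had. The S100a6 window (chr3:90612794-90612893) lies at the start of the transcript S100a6-201. The start of S100a6-203, which held more of the TPM as given below, was not searched. The windows depend on the start chosen: 63 of the 100 bases for Anxa2 and 47 for Lgals3 lie inside exons that GENCODE M21 gives to the same gene. A match of letters is no evidence of binding.

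S100a13 (plus strand) and S100a1 (minus strand) begin head to head, and their annotated ends are 42 bases apart. S100a13 exceeded S100a1 by 51.2, 47.5 and 66.5 times in TPM. The stretch between them, chr3:90514393-90514434 on the plus strand and 54.8% G or C, is shown because it parts a high gene from a low one:
S100a1 to S100a13: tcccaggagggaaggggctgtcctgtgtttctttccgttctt

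Transcript shares, the percent of a gene's TPM given to each annotated transcript, added detail for the genes with several transcripts. The 10 genes have 31 annotated transcripts, and the leading one coded for protein in each gene. It held over 90% of the TPM in 7 of them. S100a11 and S100a13 have 1 transcript each. The second transcript table, made by another method, named the same leader for all 10 genes.

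Anxa6 was split between a long and a short form in every library. Anxa6-202, with 26 exons, held 60.1%, 58.4% and 56.7% of the TPM, and Anxa6-201, with 25 exons, held 35.6%, 36.7% and 39.4%. The second table gave means of 63.3% and 31.5%. The forms differ by coding exon 21, of 18 bases, at chr11:54987051-54987068 on the minus strand, which keeps the reading frame. The transcript sequences around it, from GENCODE M21, show the exon in capitals with 30 bases on each side, and then the join without it:
Anxa6-202: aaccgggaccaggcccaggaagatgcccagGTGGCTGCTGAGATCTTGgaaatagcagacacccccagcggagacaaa
Anxa6-201: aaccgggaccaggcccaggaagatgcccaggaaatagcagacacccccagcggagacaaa
The long form was the larger in each library and in both tables, and the shares of the forms, 58.4% ± 1.69 and 37.2% ± 1.96 (SD, n = 3), did not overlap.

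S100a6 was divided between transcripts with separate starts. S100a6-203, which starts at chr3:90613305, held 61.0%, 55.9% and 64.6%, and S100a6-201, which starts upstream at chr3:90612882, held 38.6%, 43.5% and 34.1%. Library 2 had the most even split. The second table gave means of 62.7% and 33.1%.

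For Lgals1 the tables differed. Lgals1-201, which encodes galectin-1, held 98.2%, 93.5% and 97.4% in the first table but 82.9%, 70.5% and 70.8% in the second. The remainder was Lgals1-202, annotated as a target of nonsense-mediated decay, the pathway that removes messages with an early stop. Its share was 1.76%, 6.55% and 2.63% in the first table and 17.1%, 29.5% and 29.2% in the second, so no library overlapped between the tables. Lgals1-202 has an extra exon of 103 bases (exon 3 of 5, chr15:78928565-78928667, plus strand) that stops the reading frame after 16 bases. The last 30 bases of the exon before it and the start of the extra exon are printed with the stop codon in capitals:
Lgals1-202: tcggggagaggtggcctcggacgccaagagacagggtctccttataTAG
Which share is nearer the truth was not tested.

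**Figure D4:**
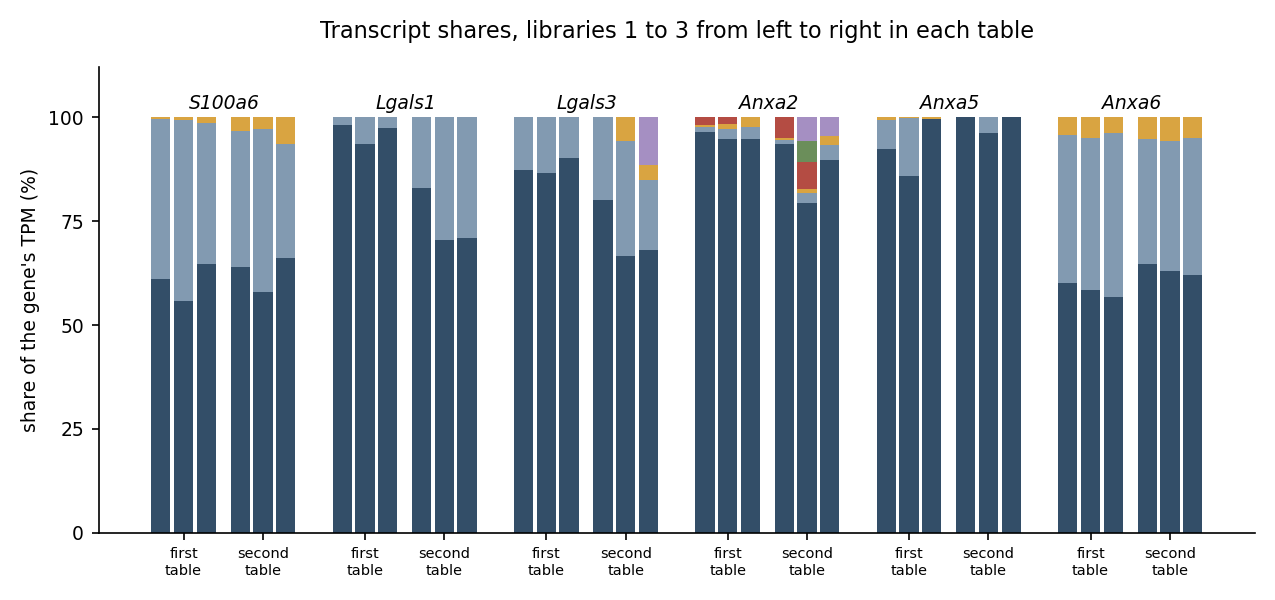
Share of each gene's TPM (percent) held by its transcripts for 6 genes with several transcripts; each group of 3 bars is libraries 1 to 3, in the first and the second transcript table, and the darkest segment is the transcript with the largest mean share in the first table. The dark segment of Lgals1 is 93.5% or more in the first table and 82.9% or less in the second.

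Lgals3-203 led Lgals3 with 88.1% ± 1.94 (SD, n = 3), against 71.5% ± 7.47 in the second table. Anxa2-201 held 95.4% ± 0.995, against 87.5% ± 7.37. Anxa5-201 held 92.6% ± 6.96, against 98.8% ± 2.16. The leading transcripts of S100a4 and S100a10 held means of 99.1% or more in both tables. Genes that overlap members were low: Gm16144, antisense to Anxa2, was at 1.33, 2.23 and 1.73 TPM, and Gm42674, on the strand of S100a4, was at 0. No source used here states whether reads were counted by strand, so reads of Anxa2 and Gm16144 may not be separable.

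The libraries were then compared for each gene. Counts were set against library totals scaled by TMM, a method that corrects totals for composition, and tested by a chi-square test of homogeneity with Benjamini-Hochberg adjustment over 13071 genes with 30 or more counts. All 10 genes differed among the libraries at an adjusted p under 0.05, but so did 54.3% of all genes tested. The median ratio of the highest to the lowest library was 1.63 for the 10 genes and 1.37 for all genes tested. Only Lgals3 differed 2-fold or more, against 8.78% of all genes tested, and it no longer did so with unscaled totals (9.76% of all genes) or with the scaling by gene length given below (7.74%). In scaled counts all 10 genes were highest in library 1, as were 39.7% of all genes tested. In TPM 8 of the 10 were highest there, against 18.3% of detected genes, the exceptions being Anxa5 (library 2) and Anxa6 (library 3).

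**Figure D5:**
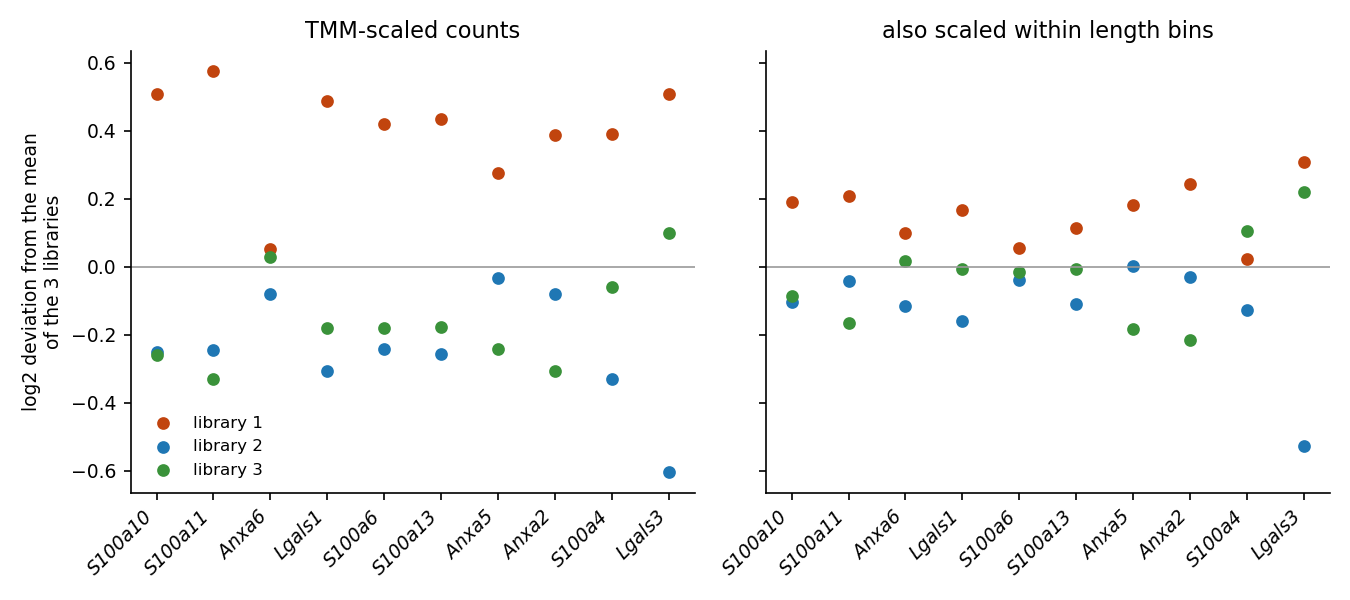
Deviation of each library from the mean of the 3 libraries (log2 scaled counts) for the 10 genes, with TMM scaling (left) and after further scaling within bins of gene length (right). On the left library 1 is above the other libraries for all 10 genes, against 39.7% of all genes tested. On the right it is for 9, against 38.2% of all genes tested, the exception being S100a4.

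The sizes differed between genes. S100a11 had 1834, 1116 and 932 expected counts, and library 1 was 1.87 times library 3 after scaling (95% exact interval 1.73 to 2.03, counting error only). S100a10 was 1.70 times as high in library 1 as in library 3 (interval 1.60 to 1.81), while libraries 2 and 3 stood at a ratio of 1.01 (interval 0.941 to 1.07). Lgals1, with 1959, 1217 and 1176 expected counts, was 1.73 times as high in library 1 as in library 2 (interval 1.61 to 1.86). Lgals3 was 2.17 times as high in library 1 as in library 2 (interval 1.59 to 2.98), the widest interval of the group. Anxa6, with 6362, 6254 and 5966 expected counts, showed the smallest difference under TMM scaling, with library 1 at 1.09 times library 2 (interval 1.06 to 1.13) and at 1.02 times library 3 (interval 0.980 to 1.05).

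For 9 of the 10 genes the deviation of library 1 from the mean was smaller once gene length was taken into account, and for Anxa6 it was larger. When the counts were scaled within 20 bins of gene length, the median ratio of highest to lowest library fell to 1.24 for the 10 genes, against 1.28 for all genes tested. Then 7 of the 10 passed the test, against 44.6% of all genes tested, and S100a4, S100a6 and S100a13 did not. S100a6 then had the smallest ratio of highest to lowest library, 1.07, and Anxa6 stood at 1.16. S100a4 then had its highest level in library 3, as did 32.0% of all genes tested. The other 9 were highest in library 1, as were 38.2% of all genes tested. The B cell list was also highest in library 1, with all 6 genes detected and summed TPM of 2338, 1825 and 1970. Ighm took 2189, 1709 and 1778 TPM of these sums, and the other 5 genes were highest in library 3 in TPM. In TMM-scaled counts Cd79b, 1 of these 5, was highest in library 1, and with scaling within length bins in library 3. The part of the B cell genes in the levels of the 10 genes was not tested. Other lists were lower: NK cell genes (2 of 5 detected) summed to 9.12, 8.98 and 20.8 TPM, dendritic cell genes (1 of 5) to 2.84, 3.85 and 5.25 TPM, and platelet genes (0 of 3) to 0.78, 1.19 and 1.17 TPM. Stromal and endothelial genes (2 of 5) summed to 88.0, 132 and 127 TPM, of which Pecam1 took 86.3, 131 and 124 TPM.

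Without library 1, 4 genes passed (Lgals3, Anxa2, Anxa5 and Anxa6), against 17.5% of all genes tested, without library 2, 8 passed, against 49.0%, and without library 3, 10 passed, against 46.3%. With other count tables or settings the members passed along with much of the transcriptome: 10 of 10 with DESeq2 size factors (54.3% of all genes tested), unscaled totals (56.2%), a minimum of 10 counts (46.8%), the second transcript table (47.9%) and the M4 counts (63.8%). With a minimum of 300 counts, 9 of 9 passed (69.9%), since Lgals3 fell under that minimum.

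Lgals3 and Anxa1 were lowest in library 2 on both scales, and the macrophage gene Lyz2 was at 16.3, 7.27 and 24.2 TPM. Cd68 of the macrophage list was also lowest in library 2 (4.95, 4.56 and 7.42 TPM). So were Cd14 (0.51, 0.40 and 0.73 TPM) and Itgam (0.50, 0.44 and 1.22 TPM), both near or below the detection threshold. Csf1r (2.07, 3.45 and 4.18 TPM) and Adgre1 (1.18, 2.27 and 1.89 TPM) were lowest in library 1 in TPM. In scaled counts Csf1r was lowest in library 2. Of the macrophage and monocyte list, 5 of 8 genes were detected, and the list summed to 426, 386 and 392 TPM, of which Ctss took 400, 368 and 351 TPM. Cd14 was below 1 TPM in all libraries, and Fcgr1 was at 0 in library 1. The part of these markers in the levels of Lgals3 and Anxa1 was not tested. Anxa1 had 203, 74 and 135 expected counts and differed 2.95-fold between libraries 1 and 2 in scaled counts (adjusted p = 1.01e-14, chi-square test with Benjamini-Hochberg adjustment).

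Genes for known partners of these proteins were also present. Of 9 partners of the S100 proteins and of annexin A2, 6 were detected and 3 differed among the libraries (Ahnak, Myh9 and Cacybp), near the 54.3% of all genes tested. Myh9, the non-muscle myosin heavy chain bound by S100A4, was at 80.0, 163 and 155 TPM, with its low value in library 1. Ahnak, a scaffold that binds the complex of annexin A2 and S100A10, was at 24.7, 38.6 and 41.0 TPM and was also lowest in library 1. In TMM-scaled counts the deviation of library 1 from the mean (log2) was -0.324 for Myh9 and -0.362 for Ahnak. With scaling within length bins it was smaller, at -0.123 for Myh9 and -0.143 for Ahnak. Both genes were still lowest in library 1 and still passed the test. Cacybp, which encodes the calcyclin-binding protein, was at 72.7, 64.5 and 72.4 TPM. The receptors Ager and Tlr4 were detected at 2.89 ± 1.00 and 1.29 ± 0.356 TPM (SD, n = 3), while Fgf1, the cargo linked with S100A13, was below 1 TPM in all libraries.

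All 9 genes on the list of galectin ligands were detected, and 7 differed among the libraries, against 54.3% of all genes tested, Lag3 alone by 2-fold or more, against 8.78%. Ptprc, which encodes CD45, was the highest at 856, 1218 and 1164 TPM. Lag3, an inhibitory receptor bound by galectin-3, was at 17.9, 22.9 and 8.82 TPM, with library 3 the low one. Havcr2, the receptor TIM-3 that galectin-9 can bind, was at 1.99, 2.57 and 3.54 TPM. All 4 glycan enzymes were detected and 3 differed (Mgat5, St6gal1 and Gcnt1), against 54.3% of all genes tested; with scaling within length bins all 4 did, against 44.6%. Mgat5, which builds the branched N-glycans that galectins bind, was at 7.35, 17.1 and 14.2 TPM, with its low value in library 1. Its ratio of highest to lowest library in scaled counts was 1.75, and 1.43 with scaling within length bins. None of Fpr1, Fpr2 and Timd4, receptors for annexin A1 or phosphatidylserine, reached 1 TPM. Scramblases are proteins that bring phosphatidylserine to the cell surface. All 3 genes listed under that name were detected, and whether their proteins have this activity was not tested. Ano6 (21.8, 43.1 and 46.8 TPM) and Plscr1 (61.9, 59.8 and 44.9 TPM) differed among the libraries, against 54.3% of all genes tested.

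Finally, the gene levels were compared with the deposited whole-number counts for the older GENCODE M4 annotation. Both tables were scaled to their shared genes and the ratio was centred on its median over all genes compared. S100a13 was 2.01, 2.10 and 2.19 times as high in the M4 table in libraries 1, 2 and 3. It was the only member past 2-fold in all 3 libraries, against 13.8% of the 10091 genes compared. At 1.5-fold, 4 members differed, against 31.0%, and without the centring 2 did at 2-fold (S100a4 and S100a13), against 12.3%. S100a4 was next at 1.90, 1.85 and 1.91 times, and S100a11 was the only member lower, at 0.765, 0.773 and 0.753 times. Short genes were higher in the M4 table in general, with a median ratio of 1.38 under 900 bases and 0.766 over 3000 bases. The cause of these differences was not tested.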

How the data were processed

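Values came from 3 libraries of 1 group. The authors deposited a gene table per library with expected counts, TPM and FPKM (mm10, GENCODE M21), a transcript table that adds the percent of the gene's TPM per transcript, a second transcript table with estimated counts and TPM, and whole-number counts for GENCODE M4, per the deposited readmes and file headers. No source used here names the tools or the strand setting. The 26345 entries that are not GENCODE genes (0.117% to 0.135% of counts) were left out. Expected counts were rounded for tests. Scaling used edgeR 4.0.16 (TMM) and, as an alternative, DESeq2 1.42.0 size factors in R 4.3.3; other steps used Python 3.11.15, scipy 1.17.1 and pandas 2.3.3. The chi-square test assumes counting noise only, which understates the error, since the reads carry no molecular identifiers in any source used here. Tables were compared for genes at 1 or more CPM in both. The members and lists were chosen with earlier results of these data known. Named genes were the members, detected family genes, and partners that led their list or were called; others named beside them were chosen after their values were seen. The list of resting T cell markers is not reported here.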

Additional observations from a re-analysis of the deposited data

How the results depend on the processing

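No paired analysis was possible because all 3 libraries form 1 group. The number of the 10 genes that differed among the libraries was 7 to 10 under the other scalings, count minimums and tables. The share of all genes tested was 44.6% to 69.9%, and the minimum of 300 counts tested only 9 of the 10 genes. Leaving out 1 library gave 4 to 10, the lowest without library 1, against 17.5% to 49.0% of all genes tested. The number was 1 when a 2-fold difference was also asked for, against 8.78%. The detected genes over the 3 families were 20, and 18 to 25 under the alternatives; leaving out 1 library gave 20 to 21. The summed level was 2556 TPM, 2050 TPM in posterior mean TPM and 1692 TPM in the second transcript table, where all 10 genes were lower and the median ratio was 0.693, against 0.552 for detected protein-coding genes. Leaving out 1 library gave 2370 to 2652 TPM. In the second table Lgals1 and S100a6 ranked above Anxa6, and Anxa2 below S100a4. Of the 10 genes, 1 was more than 2-fold apart between the gene tables, against 13.8% of all genes compared. At 1.5-fold 4 were, against 31.0%, and without centring 2 were, against 12.3%. Counting error limits Lgals3 and S100a4 most.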
